A study of Homo sapiens with 6 samples.

Results

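Aminoacyl-tRNA synthetases, the enzymes that join each amino acid to its transfer RNA (tRNA), were examined with the proteins that hold several of them together. The set holds 40 genes, matched by symbol, out of 17787 symbols listed in the series. It comprised 21 cytosolic enzymes, 16 mitochondrial enzymes and 3 scaffold proteins (AIMP1, AIMP2 and EEF1E1). Enzymes whose symbol ends in 2 were taken as mitochondrial, except TARSL2, a second cytosolic threonyl enzyme. Messenger RNA was measured in A549, an established human cell line from a lung adenocarcinoma, in 3 libraries of the control group siNC, labelled wild type, and 3 libraries of the group siFOXD3, named for a small interfering RNA (a short RNA meant to lower one message) against FOXD3, a forkhead transcription factor. Both groups share the cell line, and the labels give neither dose nor time after transfection and name no other agent. Whether replicates were separate cultures is not stated, so the p-values measure the spread between these libraries, which may be technical.

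Each synthetase recognises one amino acid and the tRNAs that carry it, and the charged tRNA then delivers that amino acid to the ribosome. Human cells keep 2 largely separate sets, one for the cytosol and one, encoded in the nucleus and imported, for the protein synthesis inside mitochondria. KARS and GARS serve both compartments from one gene, and EPRS carries the glutamyl and prolyl activities in a single protein. A number of cytosolic synthetases sit together in the multi-synthetase complex around the scaffold proteins. When amino acids are scarce, the kinase GCN2 (EIF2AK4) senses uncharged tRNA and translation of the transcription factor ATF4 increases, and many cytosolic synthetase genes are described as ATF4 targets.

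The files gave FPKM, fragment numbers corrected for the length of the transcript and the size of the library, so levels of different genes can be set side by side per length. All 40 genes were listed in every library and passed the filter of at least 1 FPKM in 3 or more libraries. The files hold no counts. The steps between low values gave a rough estimate of 7710000 to 8640000 fragments per library, at which 1 FPKM on a transcript of 2000 bases is worth an estimated 15.4 to 17.3 fragments. The targeted gene, FOXD3, was near the detection limit, at 0.152, 0.291 and 0.134 FPKM in siNC and at 0, 0.0749 and 0 FPKM in siFOXD3, which gives little depth to check the labels. The protocol text speaks of retina, whereas the cell type label names A549. Of 11 photoreceptor markers 1 (PDE6G, at most 1.03 FPKM) reached 1 FPKM in any library, and 4 were not listed. All 5 epithelial markers did, with summed levels of 5051 to 6021 FPKM in siNC and 7215 to 7277 FPKM in siFOXD3. Markers that define the alveolar type II cell were nearly absent: 2 of 7 reached 1 FPKM, and SFTPB was not listed. Leukocyte markers summed to 75.7 to 85.9 FPKM in siNC and 68.0 to 69.7 FPKM in siFOXD3, nearly all of it CD68. Of these 8 markers 4 reached 1 FPKM: CD68, CD14 (at most 3.39 FPKM), HCST (2.99) and LAPTM5 (2.24). All 4 were called lower in siFOXD3, and PTPRC stayed at or below 0.309 FPKM. Of 6 fibroblast markers 1 (COL1A1) reached 1 FPKM. The part that these marker differences have in the results below was not tested.

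Messages of the synthetases moved in both directions. Of the 40 genes, 17 rose and 17 fell in siFOXD3, and 6 were not called, in limma on log2(FPKM + 1) with adjustment over all genes and a threshold of 0.05. Change was widespread in these libraries: of 12555 genes tested, 27.2% were called higher and 38.7% lower, together 65.9%, so a count of called genes alone does not set the synthetases apart. Median-of-ratios scaling turned the split of all calls from 58.7% lower to 47.1% lower and quantile normalization to 48.1%, and both moved the median of all genes by 0.10 on the log2 scale, from -0.08 to 0.02. Under those scalings the split of the 40 genes was 19 higher and 15 lower, and 18 higher and 17 lower. Groups did not overlap for 37 of the 40 genes, against 70.7% of all genes tested. FARS2, YARS2 and NARS2 were the 3 whose groups overlapped. In bulk RNA, a lower level in each cell and fewer cells with the message cannot be told apart.

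**Figure D1:**
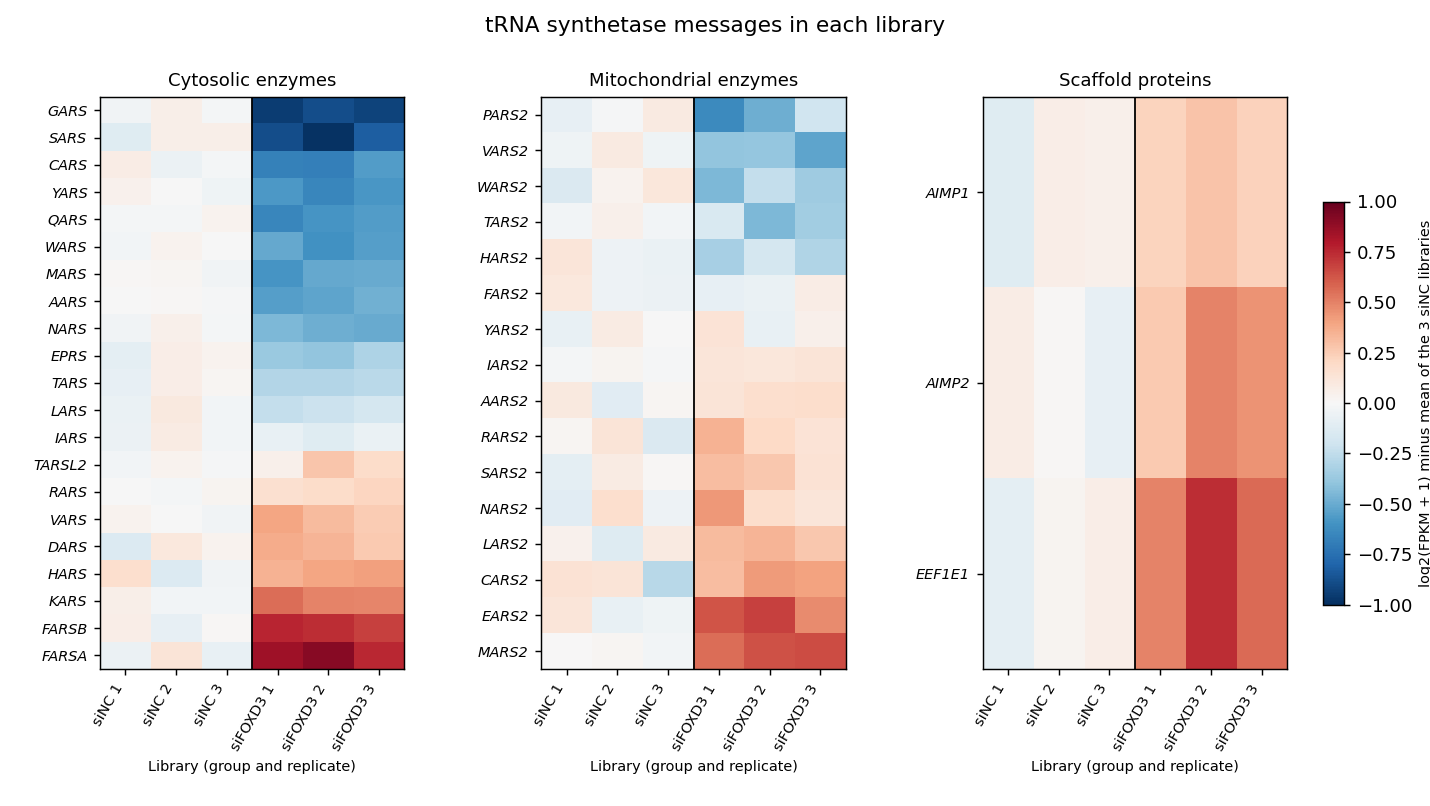
Level of each gene in each of the 6 libraries (columns), as log2(FPKM + 1) minus the mean of the 3 siNC libraries (color scale from -1 to 1), with 1 row per gene, ordered by change within cytosolic enzymes, mitochondrial enzymes and scaffold proteins. Blue rows fill the upper part of the cytosolic panel from GARS (-0.92) to LARS (-0.21), and red rows its lower part up to FARSA (0.84).

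Of the 21 cytosolic enzymes, 12 were called lower and 7 higher, with IARS and TARSL2 not called. Lower calls were 63.2% of their calls, near the 58.7% over all genes. They were 61.1% under median-of-ratios scaling (47.1% over all genes) and 65% under quantile normalization (48.1%). The median log2 fold change was -0.29 against -0.08 over all genes. Under the same scalings, in that order, that median was -0.17 and -0.40. The mitochondrial enzymes had 7 called higher and 5 lower of 16, with a median of 0.14 (0.25 and 0.17 under the same scalings). Without siFOXD3 replicate 1, or without siFOXD3 replicate 2, the count of mitochondrial enzymes called higher was 4, with IARS2, RARS2 and SARS2 no longer called. Under the median-of-ratios and quantile scalings the mitochondrial split was 9 higher and 4 lower, and 8 higher and 4 lower. All 3 scaffold proteins rose, with a median of 0.40.

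GARS, the glycyl enzyme, showed the largest fall. It was measured at 97.96, 104.5 and 99.03 FPKM in siNC and 51.6, 53.9 and 52.4 FPKM in siFOXD3, a log2 change of -0.92 (SE 0.048, adjusted p = 1.77e-07). Every siFOXD3 library thus lay near the mean of 52.7 FPKM, and the groups were far apart. SARS, the seryl enzyme, which with TARS had the highest level in siNC, was measured at 175, 199 and 198 FPKM in siNC and 102.5, 95.4 and 107 FPKM in siFOXD3, a log2 change of -0.90 (SE 0.063, adjusted p = 1.08e-06). CARS charges cysteine tRNA. Its values were 42.04, 38.3 and 39.4 FPKM in siNC and 24.6, 24.5 and 26.8 FPKM in siFOXD3, a log2 change of -0.64 (SE 0.060, adjusted p = 7.63e-06). YARS, the tyrosyl enzyme, stood at 90.8, 88.2 and 85.9 FPKM in siNC and 58.9, 55.7 and 58.6 FPKM in siFOXD3, a log2 change of -0.60 (SE 0.048, adjusted p = 2.46e-06). The siFOXD3 values of both genes were closely grouped and below every siNC value.

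QARS, the glutaminyl enzyme of the multi-synthetase complex, was at 120.0, 120.0 and 125 FPKM in siNC and 77.1, 80.6 and 81.96 FPKM in siFOXD3, a log2 change of -0.60 (SE 0.046, adjusted p = 2.01e-06). The methionyl enzyme MARS, also in the complex, was at 112, 113 and 109 FPKM in siNC and 73.8, 77.6 and 78.4 FPKM in siFOXD3, a log2 change of -0.53 (SE 0.046, adjusted p = 4.38e-06). MARS shares 355 exonic bases on the opposite strand with DDIT3, itself called lower (-0.55), and the handling of strand is not given in the sources used here. AARS charges alanine tRNA and also clears wrongly attached amino acids. It was at 87.2, 88.2 and 86.5 FPKM in siNC and 59.4, 60.4 and 62.2 FPKM in siFOXD3, a log2 change of -0.52 (SE 0.045, adjusted p = 4.4e-06). TARS, the threonyl enzyme, had the highest mean level of the 40 genes over all libraries and a smaller fall, with 176, 195 and 189 FPKM in siNC and 152, 152 and 154 FPKM in siFOXD3 and a log2 change of -0.29 (SE 0.048, adjusted p = 0.00044). None of these 4 genes had overlapping groups. NARS (asparaginyl) fell from 71.8 ± 2.40 to 51.3 ± 0.987 FPKM (SD, n = 3 each), EPRS from 101 ± 6.13 to 78.6 ± 2.47 FPKM and LARS (leucyl) from 52.4 ± 3.16 to 45.1 ± 0.943 FPKM. Their log2 changes were -0.48, -0.36 and -0.21, and LARS lost its call under median-of-ratios scaling (adjusted p = 0.159). IARS, the isoleucyl enzyme, was at 90.6, 99.9 and 92.5 FPKM in siNC and 89.5, 86.7 and 89.8 FPKM in siFOXD3, lower in every siFOXD3 library but not called (-0.09, adjusted p = 0.154), and its sign turned under median-of-ratios scaling (0.03), while quantile normalization called it lower (-0.17, adjusted p = 0.0184).

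Of the cytosolic enzymes, 12 are described as ATF4 targets: AARS, CARS, EPRS, GARS, IARS, LARS, MARS, NARS, SARS, TARS, WARS and YARS. Of these 12, 0 rose, 11 fell and 1 (IARS) was not called, and the median was -0.53. For comparison, 27.2% of all genes tested were called higher and 38.7% lower, with a median of -0.08. Among the 9 other cytosolic enzymes, 7 rose, 1 fell (QARS) and 1 (TARSL2) was not called, with a median of 0.33. Summed over the 12, the level was 1158, 1237 and 1198 FPKM in siNC and 838, 826 and 858 FPKM in siFOXD3, a ratio of 0.702. Summed over the 9, it was 457, 452 and 456 FPKM in siNC and 551, 550 and 537 FPKM in siFOXD3, a ratio of 1.20. The groups of libraries did not overlap in either sum, and the sums moved in opposite directions. The 12 genes were gathered from general knowledge with results of these libraries in view, so the contrast is a description.

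ATF4 binds a composite element of which TGATGCAA is a common core in amino acid response genes. In RefSeq promoter windows of build GRCh38.p14, which run from 250 bases before to 50 bases after each start, 33 of the 40 genes had an entry. DARS, LARS, TARSL2, VARS, YARS, AARS2 and VARS2 had none. The letters TGATGCAA occurred on either strand in 6 of the 33 (18.2%): AARS, CARS, IARS, MARS, NARS and TARS. Over all 27305 genes in the table the share was 1.08%, and over the 9838 tested genes with an entry 0.762%. The 6 are all in the group of 12 above. EPRS, GARS, SARS and WARS of that group had an entry without these letters, and GARS and SARS showed the largest falls. IARS holds the letters and was not called. Stretches of 30 bases are shown for 4 of the 6 to let the match be seen in its context. They are written 5′ to 3′ on the strand of the gene, with the match or its reverse complement in capitals.
AARS, chr16:70289675-70289704: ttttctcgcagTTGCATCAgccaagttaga
CARS, chr11:3057407-3057436: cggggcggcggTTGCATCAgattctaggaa
MARS, chr12:57488053-57488082: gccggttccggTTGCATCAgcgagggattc
TARS, chr5:33440956-33440985: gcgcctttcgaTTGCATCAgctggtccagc
AARS and CARS lie on the minus strand and MARS and TARS on the plus strand. Counted with 0 at the first transcribed base, the match began at position -187 in AARS, -2 in CARS, -4 in MARS and 2 in TARS. It began at -13 in IARS and, on the other strand, at 14 in NARS. Matches thus lay close to a listed start in 5 of the 6 genes and farther upstream in AARS. CARS and TARS had 2 windows each, and the match was found in 1 of them. Allowing any base at position 6 of the core (TGATGNAA) added GARS and YARS2, for 8 of 33 genes (24.2%) against 4.46% of all genes in the table and 2.69% of tested genes. Of the 75 tested genes with TGATGCAA in the window, the synthetases included, 10 were called higher, 39 lower and 26 not called. Over all genes tested, 27.2% were called higher and 38.7% lower. The median of the 75 was -0.29, against -0.06 for tested genes whose windows lack the letters. That median equals the value of TARS, and the 6 synthetases are part of the 75, so it is not independent of them. A match of letters is not a bound site, and ATF4 binding was not measured here.

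Regulators and targets of the amino acid response outside the synthetases also mostly fell. Of 18 genes, 15 fell, 2 rose and 1 (PPP1R15B) was not called, with a median of -0.76 against -0.08 over all genes. The shares over all genes tested were 38.7% called lower and 27.2% called higher. This list was chosen with earlier results of these data known, so the count is a description. ATF4 itself was at 652, 656 and 669 FPKM in siNC and 473, 456 and 490.0 FPKM in siFOXD3, a log2 change of -0.48 (SE 0.041, adjusted p = 3.92e-06). CHAC1, which degrades glutathione, was at 21.6, 21.5 and 20.3 FPKM in siNC and 4.26, 4.22 and 4.66 FPKM in siFOXD3, a log2 change of -2.04 (SE 0.070, adjusted p = 1.94e-08). ASNS, asparagine synthetase, a metabolic enzyme that makes free asparagine, was at 137.5, 156.5 and 146 FPKM in siNC and 35.7, 32.9 and 39.05 FPKM in siFOXD3, a log2 change of -2.00 (SE 0.070, adjusted p = 2.1e-08). PPP1R15A, the stress-induced phosphatase subunit that removes phosphate from eIF2 alpha, fell from 50.9 ± 7.04 to 19.1 ± 0.794 FPKM. The falls of CHAC1 and ASNS exceeded those of GARS and SARS on the same scale. The genes that rose were EIF2S1, which encodes eIF2 alpha (0.82), and GCN1L1, a partner of the kinase GCN2 (0.39), while EIF2AK4, the kinase gene itself, fell (-0.40).

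**Figure D2:**
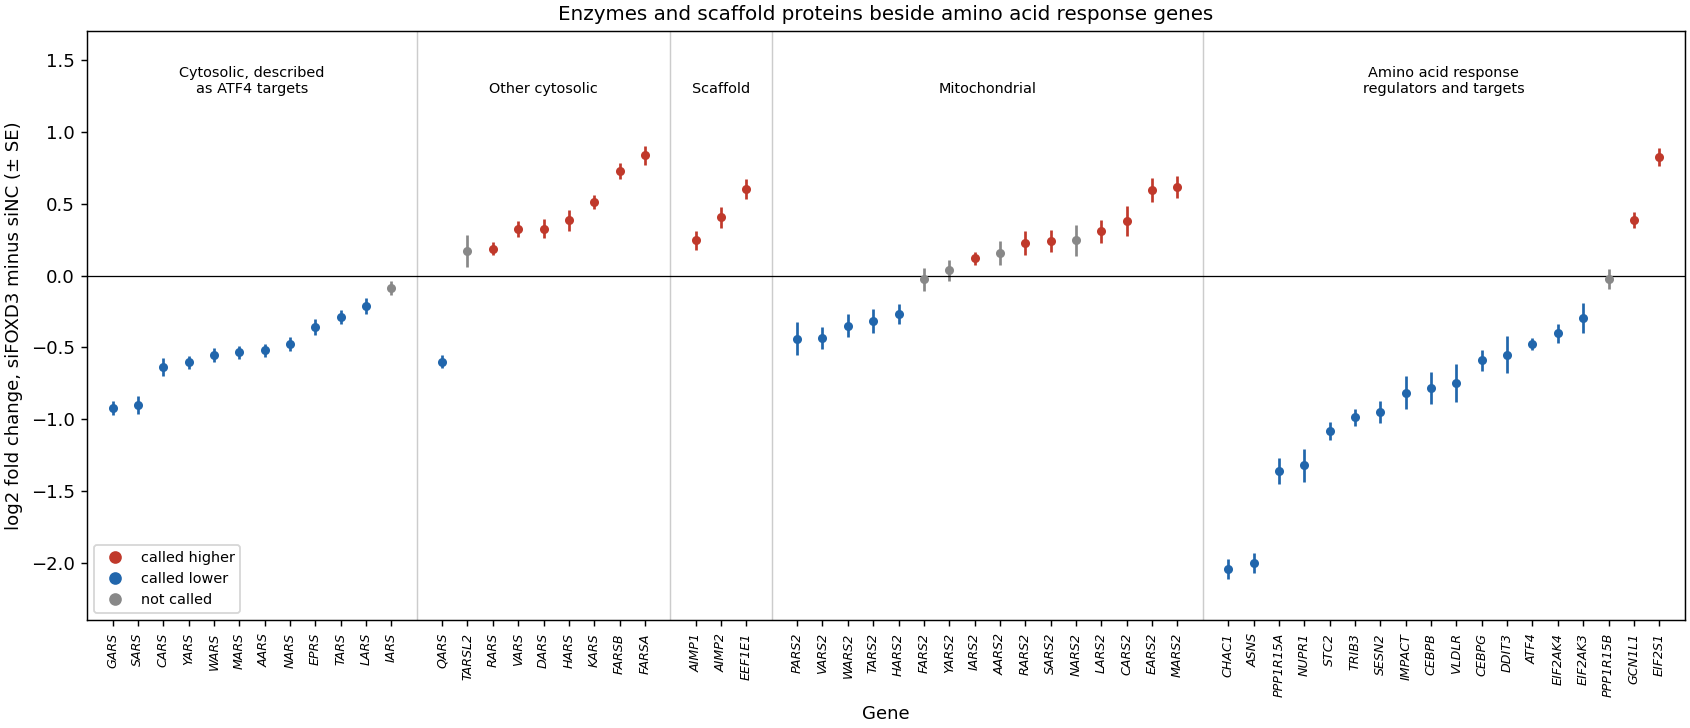
Log2 fold change (siFOXD3 minus siNC, ± SE, 3 libraries per group) of every cytosolic, scaffold and mitochondrial gene and of 18 amino acid response genes, each group ordered by change and colored by call. The 12 cytosolic enzymes described as ATF4 targets all lie below 0, from -0.92 (GARS) to -0.09 (IARS, not called), whereas 8 of the other 9 cytosolic enzymes lie above it.

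WARS, the tryptophanyl enzyme, is induced by interferon-gamma as well as by ATF4. It was at 71.8, 75.03 and 73.1 FPKM in siNC and 51.1, 47.8 and 49.9 FPKM in siFOXD3, a log2 change of -0.56 (SE 0.049, adjusted p = 4.75e-06), and no siFOXD3 library reached the siNC range. WARS shares 287 exonic bases on the opposite strand with WDR25, which was at most 3.47 FPKM. Of 11 interferon-gamma induced genes examined beside it, 8 passed the filter and all 8 fell, with a median of -1.12. Over all genes tested, 38.7% were called lower and the median was -0.08. The list was chosen with earlier results of these data known, and whether interferon bears on the fall of WARS was not tested. GBP2, a guanylate-binding protein, fell from 11.5 ± 1.11 to 2.25 ± 0.227 FPKM, the chemokine CXCL10 from 8.75 ± 0.629 to 2.14 ± 0.460 FPKM and the immunoproteasome subunit PSMB9 from 21.6 ± 2.90 to 8.16 ± 0.606 FPKM. WARS had 2 windows, and 1 of them held 1 core of the interferon-stimulated response element, a pair of GAAA repeats. The core began at position -55 on the strand of the gene (minus) and is shown in capitals.
WARS, chr14:100375383-100375412: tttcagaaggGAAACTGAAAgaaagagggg
That core occurred in 2 of the 33 genes with an entry (6.06%, WARS and EARS2), against 4.38% of all genes in the table and 3.84% of tested genes. EARS2, with the same core, was called higher, so the 2 genes that hold it moved in opposite directions.

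Among cytosolic enzymes that rose, both subunits of the phenylalanyl enzyme led. FARSA, the catalytic subunit, was at 33.5, 38.2 and 33.1 FPKM in siNC and 63.4, 66.5 and 59.4 FPKM in siFOXD3, a log2 change of 0.84 (SE 0.068, adjusted p = 2.69e-06). FARSB, the beta subunit, was at 60.5, 54.5 and 58.1 FPKM in siNC and 98.7, 96.7 and 93.03 FPKM in siFOXD3, a log2 change of 0.73 (SE 0.053, adjusted p = 1.39e-06). The enzyme works as a tetramer of both subunits. The log2 ratio of FARSB to FARSA was 0.71 ± 0.18 in siNC and 0.60 ± 0.06 in siFOXD3 (SD, n = 3 each), a difference of -0.11 (SE 0.11, two-sided exact permutation p = 0.4), with overlapping groups. With 3 libraries per group the smallest p this permutation test allows is 0.1, so it could not have called a change of that ratio at 0.05.

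KARS, the lysyl enzyme of both compartments, was at 61.2, 57.7 and 57.8 FPKM in siNC and 87.4, 83.5 and 82.9 FPKM in siFOXD3, a log2 change of 0.52 (SE 0.049, adjusted p = 8.1e-06). KARS shares 176 exonic bases on the opposite strand with TERF2IP and has 3 named pseudogenes. HARS, the histidyl enzyme, was at 34.7, 27.9 and 29.96 FPKM in siNC and 39.3, 40.8 and 41.2 FPKM in siFOXD3, a log2 change of 0.38 (SE 0.075, adjusted p = 0.00112). DARS, the aspartyl enzyme of the complex, was at 39.97, 47.4 and 45.1 FPKM in siNC and 57.2, 56.1 and 53.1 FPKM in siFOXD3, a log2 change of 0.33 (SE 0.067, adjusted p = 0.00155). All siFOXD3 values of these 3 enzymes exceeded the siNC values, with the narrowest gap in HARS and DARS. VARS, the valyl enzyme, rose from 39.7 ± 0.995 to 49.9 ± 2.56 FPKM (log2 0.32). The VARS symbol stood on 7 rows of each file and VARS2 on 6, which were summed. Taking the highest row instead left both calls and directions as they were. RARS, the arginyl enzyme, had a smaller rise, from 65.96 ± 0.975 to 75.2 ± 1.42 FPKM (log2 0.19), and lost its call under quantile normalization (adjusted p = 0.0549). TARSL2 was the least abundant of the 40 genes, at 1.08, 1.18 and 1.11 FPKM in siNC and 1.20, 1.57 and 1.42 FPKM in siFOXD3. Its siFOXD3 values lay above the siNC values, but the difference was not called (0.17, SE 0.11, adjusted p = 0.193) except under quantile normalization (0.47, adjusted p = 0.00353).

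The multi-synthetase complex did not move as one. Of its 11 genes, 6 rose, 4 fell and 1 (IARS) was not called. With 27.2% of all genes tested called higher and 38.7% lower, calls in both directions are not particular to the complex. The enzymes of the complex that rose were DARS, KARS and RARS, and those that fell were EPRS, LARS, MARS and QARS. The scaffold proteins, by contrast, all rose. EEF1E1, which anchors MARS in the complex, was at 31.1, 33.8 and 34.95 FPKM in siNC and 47.3, 56.2 and 49.8 FPKM in siFOXD3, a log2 change of 0.60 (SE 0.072, adjusted p = 4.05e-05). AIMP2, the core of the complex, which binds KARS, was at 23.3, 22.3 and 20.8 FPKM in siNC and 26.8, 31.6 and 30.6 FPKM in siFOXD3, a log2 change of 0.40 (SE 0.073, adjusted p = 0.000694). AIMP1, which binds RARS and is also secreted as a cytokine precursor, was at 21.1, 24.1 and 23.9 FPKM in siNC and 26.99, 28.3 and 27.1 FPKM in siFOXD3, a log2 change of 0.25 (SE 0.065, adjusted p = 0.00707). All 9 siFOXD3 values of these genes exceeded the siNC values of the same gene. AIMP2 shares 532 exonic bases on the opposite strand with EIF2AK1, and AIMP1 shares 387 with TBCK. In the 13 cytosolic enzymes outside the complex, 4 rose and 8 fell, with 1 not called and a median of -0.48, beside 3, 4 and 1 of the 8 enzymes inside it, with a median of -0.15. Under median-of-ratios scaling the median of these 8 was close to 0 (-0.03), and under quantile normalization it was -0.22.

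**Figure D3:**
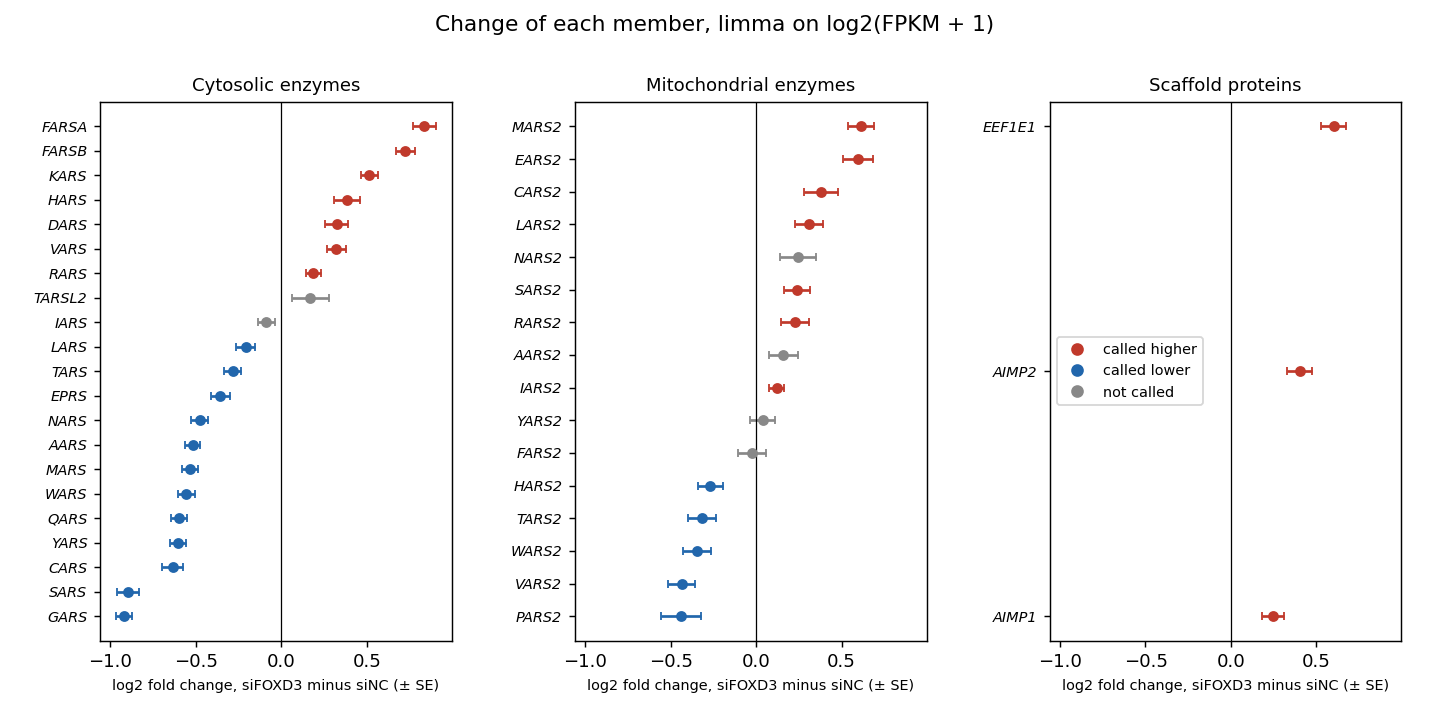
Log2 fold change of each of the 40 genes (siFOXD3 minus siNC, ± SE, limma on log2(FPKM + 1), 3 libraries per group), colored by call. Cytosolic enzymes run from -0.92 to 0.84, mitochondrial enzymes from -0.44 to 0.61 and scaffold proteins from 0.25 to 0.60.

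Synthetases fall into classes I and II by the fold of the catalytic domain. Among cytosolic enzymes, 2 of 9 in class I rose and 6 fell, with a median of -0.53. In class II, 5 of 11 rose and 5 fell, with a median of 0.17 (0.23 and 0.26 under the median-of-ratios and quantile scalings). The 0.17 and 0.23 are the values of TARSL2, the least abundant enzyme message, which was not called in either fit, so they show no shift of class II. EPRS, with a domain of each class, was left out of these counts. Among mitochondrial enzymes the classes were placed the other way in the fit reported: 6 of 9 in class I rose and 2 fell (median 0.23). In class II, 1 of 7 rose and 3 fell (median -0.02, or 0.08 under both alternative scalings). Under both scalings AARS2 and NARS2 of class II were also called higher. HARS2 lost its call under median-of-ratios scaling and PARS2 under quantile normalization. The class II split thus changed with the scaling, and the class I calls of IARS2 and RARS2 were lost in several alternatives.

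Mitochondrial synthetase messages were less abundant than cytosolic ones. The median of the siNC means was 10.3 FPKM over the 16 mitochondrial enzymes, from 4.90 FPKM (MARS2) to 88.5 FPKM (IARS2), and 71.8 FPKM over the 21 cytosolic enzymes, from 1.13 FPKM (TARSL2) to 191 FPKM (SARS). At least 20 FPKM were reached by 5 of the 16 and 20 of the 21. MARS2, the least abundant mitochondrial enzyme in siNC, showed the largest rise of the 16. It was at 4.91, 4.99 and 4.80 FPKM in siNC and 7.68, 8.19 and 8.25 FPKM in siFOXD3, a log2 change of 0.61 (SE 0.075, adjusted p = 4.69e-05). EARS2, the glutamyl enzyme that also supplies mitochondrial glutamine tRNA, was at 7.15, 6.11 and 6.28 FPKM in siNC and 10.6, 11.02 and 9.41 FPKM in siFOXD3, a log2 change of 0.60 (SE 0.087, adjusted p = 0.00016). Neither gene had a siFOXD3 value inside the siNC range. CARS2, the cysteinyl enzyme, was at 35.1, 34.7 and 25.9 FPKM in siNC and 39.4, 42.9 and 42.2 FPKM in siFOXD3, a log2 change of 0.38 (SE 0.10, adjusted p = 0.00754). Its siNC replicate 3 was the lowest library and widened the control spread, and without that library the log2 change was 0.24 (adjusted p = 0.00713).

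The leucyl enzyme LARS2 rose from 7.19 ± 0.639 to 9.13 ± 0.270 FPKM (log2 0.31). Smaller rises were called for SARS2 (0.24, SE 0.076, adjusted p = 0.0173), RARS2 (0.23, SE 0.082, adjusted p = 0.0312) and IARS2 (0.12, SE 0.043, adjusted p = 0.0313), each lost in at least 2 of the alternatives run. SARS2, the seryl enzyme, shares 349 exonic bases on the opposite strand with MRPS12, a mitochondrial ribosomal protein gene. The falls were of PARS2 (prolyl), from 6.06 ± 0.424 to 4.24 ± 0.827 FPKM (log2 -0.44), VARS2 (valyl), from 10.5 ± 0.605 to 7.52 ± 0.459 FPKM (-0.44), WARS2 (tryptophanyl), from 24.1 ± 2.28 to 18.7 ± 1.49 FPKM (-0.35), TARS2 (threonyl), from 18.1 ± 0.604 to 14.4 ± 1.63 FPKM (-0.32), and HARS2 (histidyl), from 22.4 ± 1.69 to 18.4 ± 1.12 FPKM (-0.27). PARS2 lost its call under quantile normalization (adjusted p = 0.085) and HARS2 under median-of-ratios scaling (adjusted p = 0.096). VARS2 shares 1858 exonic bases on the same strand with GTF2H4. AARS2 (0.16, adjusted p = 0.119) and NARS2 (0.24, adjusted p = 0.0646) were not called, and both were called higher under the median-of-ratios and quantile scalings, NARS2 also without siNC replicate 2 (0.33, adjusted p = 0.0253). FARS2 (-0.02, adjusted p = 0.8) and YARS2 (0.04, adjusted p = 0.665) were not called under any setting.

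Sums over each compartment bring the levels together. Cytosolic enzymes summed to 1615, 1689 and 1653 FPKM in siNC and 1389, 1377 and 1395 FPKM in siFOXD3, a ratio of 0.839. Mitochondrial enzymes summed to 290.6, 298 and 281 FPKM in siNC and 308, 308 and 304 FPKM in siFOXD3, a ratio of 1.06. Neither sum had overlapping groups, and each moved little within a group. The mean mitochondrial sum rose from 290 to 307 FPKM, beside IARS2 from 88.5 to 96.2 FPKM and CARS2 from 31.9 to 41.5 FPKM. The rises of IARS2 and CARS2 together are as large as that of the sum, so it is not a shift of the whole compartment. The cytosolic sum was 5.56, 5.66 and 5.88 times the mitochondrial one in siNC and 4.51, 4.48 and 4.59 times in siFOXD3. GARS and KARS, which serve both compartments, were counted as cytosolic.

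For 16 pairs of enzymes that charge the same amino acid, the log2 level of the mitochondrial enzyme minus that of the cytosolic enzyme was taken in each library. It was higher in siFOXD3 in 11 of 16 pairs, with a median change of 0.36. Groups did not overlap in 12 pairs, 9 higher and 3 lower, and each of these had the smallest p that 3 libraries against 3 allow in a two-sided exact permutation test, 0.1. No pair can pass 0.05 in this design. For methionine, MARS2 minus MARS was -4.26, -4.25 and -4.24 in siNC and -3.11, -3.10 and -3.10 in siFOXD3, a change of 1.15 (SE 0.0059). The gap between the compartments was thus smaller in siFOXD3 than in siNC. Libraries of the groups are not shown to be paired, so no library has a narrowing of its own. The limma SE of MARS2 alone was 0.075, so the SE of 0.0059 may understate the uncertainty. Serine (SARS2 and SARS, 1.14), cysteine (CARS2 and CARS, 1.02) and glutamate (EARS2 and EPRS, 0.95) followed, then asparagine (0.72), alanine (0.68), tyrosine (0.64), leucine (0.52) and isoleucine (0.21).

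The pairs that moved the other way were FARS2 against FARSA (-0.86), VARS2 against VARS (-0.76) and HARS2 against HARS (-0.65). Pairs with overlapping groups were those of arginine (0.04), threonine (-0.03), proline (-0.08) and tryptophan (0.21), with exact permutation p from 0.2 to 0.8, and those of threonine and proline turned above 0 under quantile normalization (0.14 and 0.20) and with a pseudocount of 5 (0.02 and 0.08). In 7 pairs both enzymes were called and in opposite directions. The cytosolic enzyme fell and the mitochondrial one rose in 5 of these (CARS, EPRS with EARS2, LARS, MARS and SARS), and the reverse held in 2 (HARS and VARS). Both fell in 3 pairs (EPRS with PARS2, TARS and WARS), both rose in 1 (RARS), and at least 1 enzyme was not called in 5. EPRS stands in 2 pairs, which therefore share its values. These lists rest on the calls of the fit reported. LARS and HARS2 lost their calls under median-of-ratios scaling, and SARS2 without siFOXD3 replicate 1 or 2. AARS2 and NARS2 were called higher under median-of-ratios scaling and quantile normalization, so the pairs in opposite directions change with the setting.

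**Figure D4:**
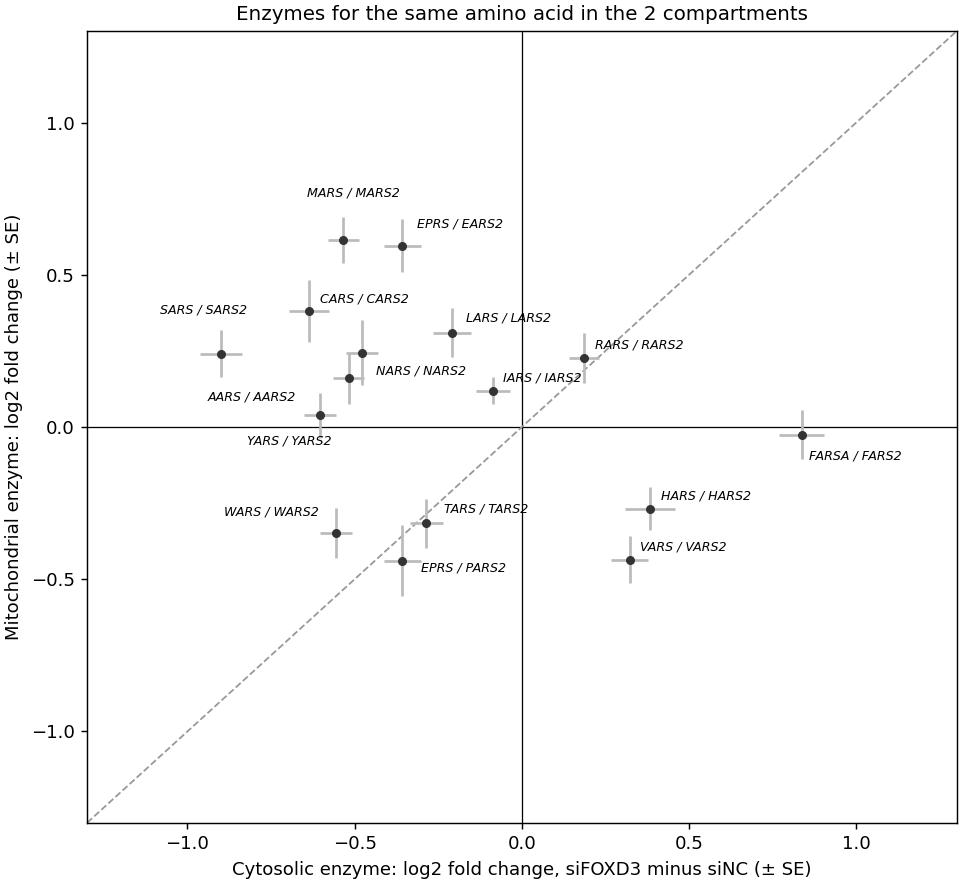
Log2 fold change of the mitochondrial enzyme (vertical axis) against that of the cytosolic enzyme for the same amino acid (horizontal axis) in 16 pairs, siFOXD3 minus siNC, with SE bars and a dashed line of equal change. Of the 16 pairs, 11 lie above the line, and those of FARSA, HARS and VARS lie well below it.

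HARS and HARS2 are neighbours that are read in opposite directions from starts 84 bases apart, and they moved in opposite directions. HARS2 was at 24.3, 21.5 and 21.2 FPKM in siNC and 17.5, 19.6 and 17.96 FPKM in siFOXD3, a log2 change of -0.27 (SE 0.072, adjusted p = 0.00756), while HARS rose. The log2 ratio of HARS2 to HARS was -0.50, -0.36 and -0.48 in siNC and -1.12, -1.02 and -1.15 in siFOXD3. Between the starts the letters CCGGAAG, the core of an element bound by ETS factors, occurred 2 times, 1 beside each start. The 30 bases before the start of HARS (minus strand) show the match beside that gene in capitals.
HARS, chr5:140691371-140691400: tgcgacccagcgactcgatagCCGGAAGtc
Annotated exons of HARS and HARS2 overlap by 437 bases on opposite strands, and with strand handling not given, reads from that stretch could count for either gene. HARS2 also shares 152 exonic bases on the same strand with ZMAT2, which reached 78.3 FPKM, and HARS shares 221 on the opposite strand with WDR55, which reached 15.5 FPKM.

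Other genes of the tRNA pathway were examined in 5 lists, whose counts stand beside 27.2% called higher and 38.7% called lower over all genes tested. Of 24 genes of tRNA maturation and export, 16 rose and 4 fell, with 4 not called and a median of 0.46. RPP40, a protein subunit of RNase P, which trims the 5′ end of tRNA precursors, rose from 10.2 ± 1.19 to 26.9 ± 0.360 FPKM, and its fellow subunits POP5 and POP1 rose from 15.6 ± 1.39 to 28.5 ± 2.99 FPKM and from 6.70 ± 0.232 to 12.4 ± 0.360 FPKM. XPOT, the nuclear export factor for tRNA, fell (-0.19). Of 38 tRNA modification genes of the nucleus and cytosol, 37 were tested, and 20 rose and 4 fell, with 13 not called (median 0.22, or 0.33 with median-of-ratios scaling and 0.36 with quantile normalization). TRMT61A, the catalytic subunit of a tRNA methyltransferase, rose from 10.6 ± 0.670 to 25.2 ± 1.08 FPKM, the cytosine methyltransferase NSUN2 from 58.99 ± 3.82 to 119 ± 1.78 FPKM and the pseudouridine synthase PUS7 from 5.04 ± 0.461 to 10.9 ± 1.32 FPKM. Both lists had medians above the -0.08 of all genes, and the cytosolic synthetases a median below it.

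Of 22 mitochondrial tRNA partners and elongation factors, 10 rose and 3 fell, with 9 not called (median 0.16, or 0.26 under both alternative scalings). PUS1, a pseudouridine synthase of nucleus and mitochondria, rose from 12.4 ± 0.902 to 26.1 ± 1.34 FPKM, the methyltransferase TRMT2B from 5.27 ± 0.972 to 10.1 ± 1.16 FPKM and the thiolation enzyme TRMU from 6.03 ± 0.476 to 10.4 ± 1.06 FPKM. Cytosolic elongation factors take charged tRNA to the ribosome and move it along. Of 8, 3 rose, 4 fell and 1 was not called (median -0.16, or -0.05 with median-of-ratios scaling and -0.29 with quantile normalization). All genes tested also moved both ways (27.2% called higher, 38.7% lower), so this split does not set the factors apart. EEF1A1, the carrier of charged tRNA and the most abundant of the 8, fell from 5406 ± 419 to 2996 ± 60.3 FPKM, and the translocase EEF2 from 1000 ± 34.3 to 524 ± 5.74 FPKM. EIF5A, which relieves ribosomes stalled at stretches such as proline, rose from 515.5 ± 39.3 to 908 ± 15.1 FPKM. The values of EEF1A1, a gene with many processed pseudogenes, are uncertain.

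**Figure D5:**
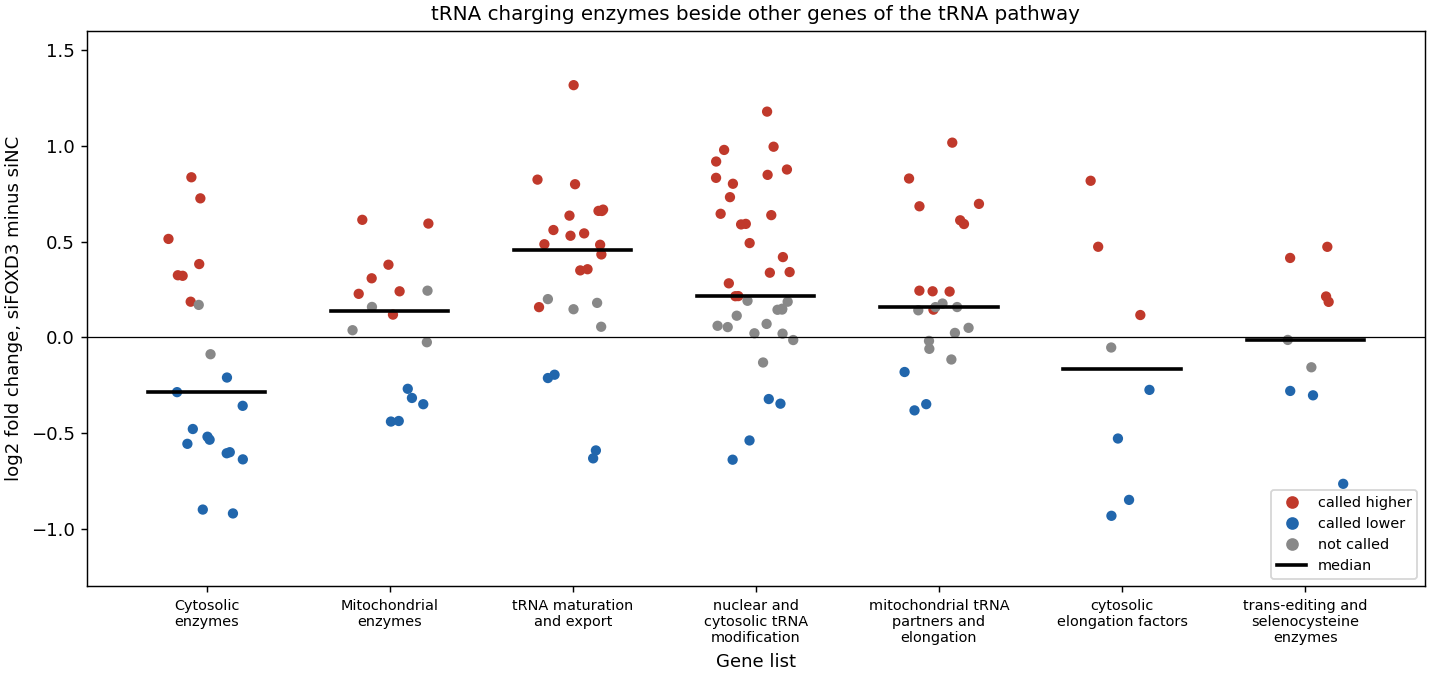
Log2 fold change (siFOXD3 minus siNC) of each gene in the cytosolic and mitochondrial synthetases and in 5 lists of other tRNA pathway genes, with the median of each list as a black bar and points colored by call (horizontal scatter is for legibility). The medians run from -0.29 (cytosolic enzymes) to 0.46 (tRNA maturation and export).

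Some values rest on reads that more than one gene could claim. In the GENCODE 29 annotation, 13 of the 40 genes share exonic bases with another gene listed in the files, mostly on the opposite strand, and 13 have a named pseudogene. Besides those given above, CARS2 overlaps ING1, EARS2 overlaps UBFD1 and YARS overlaps S100PBP. AARS2 overlaps TMEM151B and MARS overlaps ARHGAP9, both at most 0.058 FPKM. Their part in the differences was not tested.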

How the data were processed

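RNA libraries of A549 cells were made with an Illumina TruSeq RNA kit from Trizol-extracted RNA, per the labels' protocols, in 2 groups of 3 taken from the sample titles. TopHat, Cufflinks and the build hg19 were used, per the submitters' processing notes; their versions, the annotation and how strand was handled are not given. Per the file headers, the authors deposited 1 FPKM value per gene symbol and library. An absent symbol was set to 0 and rows of 1 symbol were summed. Of 17787 symbols, 12555 with at least 1 FPKM in at least 3 libraries were tested in R 4.3.3 by limma 3.58.1 after adding 1 and taking log2 (linear model by group, eBayes with trend and robust). Two-sided p-values were adjusted by Benjamini-Hochberg over all of these, and 0.05 was the threshold for a call. The log2(FPKM + 1) scale of the fold changes understates changes of low genes. The fit was tested on simulated data. Depth was estimated with an assumed fragment length of 150 bases on transcripts of 700 to 4000 bases; on the deposited values the steps were less distinct than on simulated ones, so the estimate is rough.

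Exact permutation tests of pairs used scipy 1.17.1, and figures matplotlib 3.10.9. GENCODE 29 gave exon overlaps and transcript lengths on another build than hg19, so the printed promoter coordinates are RefSeq's (GRCh38.p14) and were not joined to the values. Motifs were searched on both strands by exact letters, overlapping matches included. The genes and lists were chosen with earlier results of these data known. Values in every library are given for the 10 largest rises and 8 largest falls among called genes, the 4 highest mean levels, TARSL2 and the scaffold proteins, plus HARS2, IARS, ATF4, CHAC1 and ASNS, added after their values were seen; in other lists, up to 3 called genes with the largest change are named, and further names were chosen after their values were seen. Alternatives were other pseudocounts, filters, scalings, a plain limma fit, a replicate block, each library left out, compartment by name alone and the highest row of VARS and VARS2, the last added after seeing the data.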

Additional observations from a re-analysis of the deposited data

How the results depend on the processing

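Of the 40 genes, 27 kept their direction and call in all 15 alternatives run for each gene. The median change of the cytosolic enzymes was -0.32 with a minimum of 5 FPKM, -0.32 with compartment by name alone, -0.17 with median-of-ratios scaling and -0.40 with quantile normalization, and -0.33 to -0.25 with 1 library left out. The mitochondrial median was 0.25 with median-of-ratios scaling. Mitochondrial enzymes called higher numbered 4 to 8 with 1 library left out. Signs turned for IARS with median-of-ratios scaling (0.0285) and for FARS2 with median-of-ratios scaling (0.0805) and quantile normalization (0.0794); with 1 library left out FARS2 ran from -0.0733 to 0.0298 and YARS2 from -0.0121 to 0.0942. None of these was called in the fit reported. The cause of these changes was not tested. With median-of-ratios scaling TARS moved to -0.17, TARS2 to -0.21 and RARS to 0.30, all still called, and with a pseudocount of 5 MARS2 moved to 0.40 and PARS2 to -0.26. The pairs above 0 numbered 10 to 13 of 16 over the alternatives. Libraries with the same replicate number in both groups correlated in their deviations from the group means at r = 0.0613, 0.163 and 0.115, which does not show that the numbers pair them, although each library correlated best with its own number. A fit with the replicate number as a block called 16 genes higher and 17 lower, with IARS2 lost (adjusted p = 0.0522), and 3354 and 4818 over all genes. Depth limits what can be said of FOXD3, and of TARSL2, which had the lowest level of the 40 genes.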

Other observations

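Trans-editing factors clear mischarged tRNA. They were examined with the enzymes of the selenocysteine route, in which a serine attached to its tRNA is converted to selenocysteine. Of these 9 genes, 4 rose and 3 fell, with 2 not called. Their median was -0.01 (0.09 with median-of-ratios scaling and 0.15 with quantile normalization). All genes tested also moved both ways (27.2% called higher, 38.7% lower), so calls in both directions do not set this list apart. SEPSECS, which makes the final conversion, fell from 2.94 ± 0.0638 to 1.33 ± 0.333 FPKM (SD, n = 3 each; log2 -0.76). SEPHS1 rose from 20.8 ± 1.10 to 29.2 ± 0.587 FPKM (log2 0.47), and C14orf126 from 5.85 ± 0.994 to 8.10 ± 0.773 FPKM (log2 0.42).

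Other letters in the RefSeq windows gave a different division of the synthetases. CCGGAAG, the ETS core, occurred in 17 of the 33 genes with an entry (51.5%), against 12.2% of all genes in the table and 23.2% of tested genes. Those 17 genes include ones that rose (HARS, KARS, MARS2) and ones that fell (GARS, SARS, TARS2). CACGTG, the E-box, occurred in 5 (15.2%: IARS, CARS2, EARS2, MARS2 and AIMP2), against 8.77% of all genes in the table and 12.7% of tested genes. Of these 5, all but IARS were called higher, whereas the 1247 tested genes with the E-box were divided into 401 called higher, 439 lower and 407 not called. TGACGTCA, the cyclic AMP response element, occurred in AIMP2 alone (3.03%, against 2.25% of all genes in the table and 3.88% of tested genes). Binding of factors to these letters was not measured here.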
